A study of Mus musculus with 10 samples.

Results

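Endothelial cell genes were followed through RNA-seq of 10 mouse tumors, each 1 library. The gene set holds 34 genes named by symbol, chosen because endothelial cells are known to use them. It was meant to lie outside the VEGF and TIE systems, but FLT4, one of its members, is a VEGF receptor. All 34 are among the 16895 genes of the deposited files. The tumors were NLS-2SA-YAP1 tumors (n = 3) and YAP1-MAML2-v2 tumors (n = 7). NLS-2SA-YAP1 is described in the series title as constitutively active YAP1, a transcriptional coactivator held back by the Hippo pathway, and YAP1-MAML2 is a fusion with the Notch coactivator MAML2. In every group the construct was delivered by an avian RCAS retrovirus, made by chicken DF1 fibroblasts that were injected under the arachnoid of newborn mice. All mice were null for Cdkn2a and carried the virus receptor tv-a under Nestin control, so that Nestin-expressing cells could be infected. The labels name DF1 as cell type for every sample, although the material is mouse tumor, and they give no age at harvest. By source region there are 3 extra axial libraries (NLS-2SA-YAP1 replicate 1, YAP1-MAML2-v2 replicates 2 and 6), 6 extra cranial libraries (NLS-2SA-YAP1 replicates 2 and 3, YAP1-MAML2-v2 replicates 1, 3, 4 and 5) and 1 intra ventricular library (YAP1-MAML2-v2 replicate 7). The names of the files of YAP1-MAML2-v2 replicates 6 and 7 share a number whose meaning is not stated, and whether both come from 1 mouse is not known. Nothing in the labels ties any other libraries together. No normal tissue or vessel preparation was analysed here.

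Endothelial cells line blood and lymph vessels. Their identity is held by ETS, SOX and TAL factors, among them ERG, FLI1, SOX17, SOX18 and TAL1, and their contacts by VE-cadherin (CDH5), PECAM1 and claudin-5 (CLDN5). In the brain, capillary endothelium forms the blood-brain barrier: it is rich in CLDN5 and carries transporters such as MFSD2A and SLCO1C1. PLVAP, the diaphragm protein of fenestrated and caveolated vessels, is kept low in mature barrier endothelium. Sprouting vessels make the peptide apelin (APLN) and endocan (ESM1), and lymphatic vessels depend on PROX1 and on the receptor FLT4.

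Endothelial RNA was present in every tumor, and its members ranged widely from tumor to tumor. Levels are given in CPM, the deposited value relative to the library total, after TMM scaling of that total. The endothelial receptors KDR, TEK and TIE1, which are not members, were also found in every library, at 6.6 to 169, 6.13 to 108 and 3.83 to 26.4 CPM. These are bulk samples, so fewer endothelial cells and less RNA per endothelial cell cannot be told apart. Across genes, levels were compared per kilobase of annotated exon. On that scale endoglin (ENG), a TGF-beta coreceptor that mesenchymal cells also carry, came first with a mean of 46.7 ± 24.1 CPM per kilobase (SD, n = 10). Next came PLVAP at 28.2 ± 21.1, the water channel AQP1 at 28 ± 26.8, CDH5 at 25.9 ± 21.9 and the transcription cofactor LMO2 at 14.6 ± 10.3 CPM per kilobase (SD, n = 10), and these neighbours overlap within their spread. At the other end stood PROX1, a homeobox factor of lymphatic endothelium, at 0.197 ± 0.249 and the kinase gene BMX at 0.224 ± 0.216 CPM per kilobase (SD, n = 10). ECSCR, BMX and SLCO1C1 were listed at 0 or 1 in 3, 4 and 5 libraries, and no fold is read from them.

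The level of a single gene could differ greatly between tumors. CDH5, on chromosome 8 at 104101625 to 104144511 (mm10), had 44.6, 221 and 59.6 CPM in the NLS-2SA-YAP1 tumors. In YAP1-MAML2-v2 replicates 1 to 7 it had 25.9, 159, 290, 51.8, 23.4, 59.9 and 154 CPM. The tumors with most CDH5 were thus 1 of each construct, and the highest library had 12.4 times the lowest. ENG was steadier, with 7 times between its lowest library (54.3 CPM) and its highest (380 CPM). ESM1 had 138 times between 0.497 and 68.6 CPM, and APLN 157 times between 0.12 and 18.8 CPM.

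**Figure D1:**
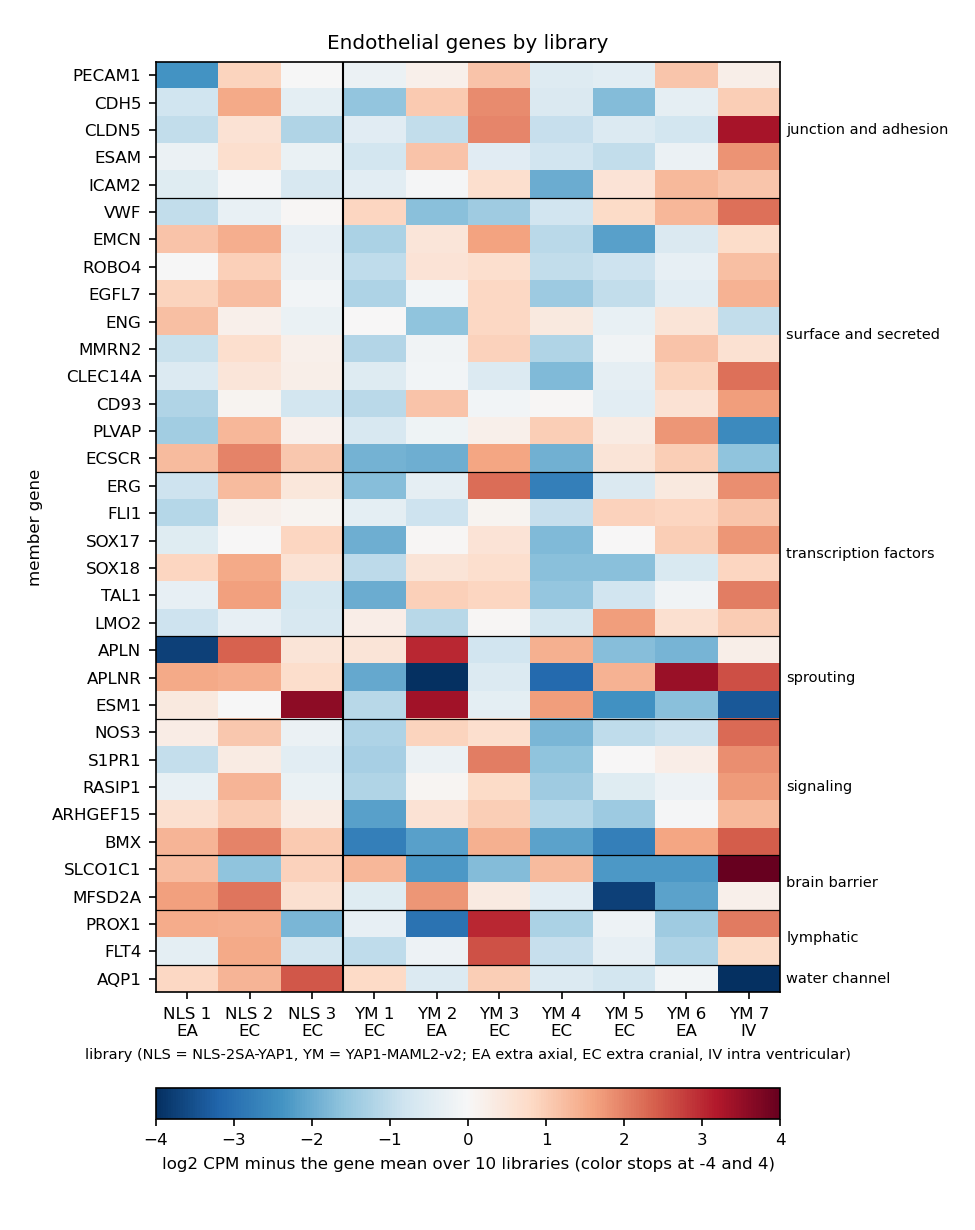
Each row is a member gene, grouped by role, and each column a library, NLS-2SA-YAP1 first; color gives log2 CPM minus that gene's mean over the 10 libraries. YAP1-MAML2-v2 replicate 7, the intra ventricular tumor, is highest for 15 of the 34 genes and lowest for PLVAP, ESM1 and AQP1.

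Libraries differed as wholes. The median member stood 1.24 log2 units above its own mean in YAP1-MAML2-v2 replicate 7, 1.03 above in NLS-2SA-YAP1 replicate 2 and 0.72 above in YAP1-MAML2-v2 replicate 3. It stood 1.04 log2 units below in YAP1-MAML2-v2 replicate 1 (-1.04) and 1.02 below in YAP1-MAML2-v2 replicate 4 (-1.02). Over all 13707 genes tested the same median lay between -0.03 and 0.05 in every library. TMM scaling itself keeps that median small, and other gene sets of this size were not compared. The 10 skeletal muscle genes of the marker lists were high in some of the same tumors: they summed to 76.7 CPM in NLS-2SA-YAP1 replicate 2, to 262 CPM in NLS-2SA-YAP1 replicate 3, to 51.5 CPM in YAP1-MAML2-v2 replicate 3 and to at most 2.69 CPM in each other library, the intra ventricular one included. The plot of members by library shows that YAP1-MAML2-v2 replicate 3 was highest for CDH5, PECAM1, EMCN, ERG, S1PR1, PROX1 and FLT4.

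Members did not keep a fixed ratio to each other. VWF, the clotting factor stored in endothelial granules, was lower than CDH5 by 2.99 log2 units in YAP1-MAML2-v2 replicate 3 (-2.99) and by 2.38 in replicate 2 (-2.38). It was higher than CDH5 by 2.76 in YAP1-MAML2-v2 replicate 1, by 2.81 in replicate 5 and by 2.04 in replicate 6. These are differences between genes in CPM, not corrected for length, and are read only across libraries. LMO2 and FLI1 are also used by blood cells, and LMO2 was highest in YAP1-MAML2-v2 replicate 5, at 83.5 CPM. That library had 149 CPM of the leukocyte gene PTPRC, and YAP1-MAML2-v2 replicate 6, with 40.9 CPM of LMO2, had the most PTPRC, 204 CPM. The 8 leukocyte genes summed to 318 to 490 CPM in NLS-2SA-YAP1 tumors and to 262 to 1448 CPM in YAP1-MAML2-v2 tumors, highest in replicate 7, where LMO2 was second at 53.1 CPM. The part of leukocyte RNA in these values was not tested.

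The intra ventricular tumor held many of the extreme values. It was the highest library for 15 of 34 members, against 19.9% of all genes tested, and the lowest for 3, against 17.8% of all genes. With 1 library there is no test. CLDN5, the main claudin of endothelial tight junctions, had 34.8 CPM there, and 1.48, 2.05 and 13.6 CPM as the lowest, median and highest of the other 9 libraries. SLCO1C1, the thyroid hormone transporter of brain endothelium that astrocytes also express, had 11.9 CPM there and at most 0.625 CPM in any other library. Both barrier genes were thus far above the remaining tumors.

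The 3 members that were lowest in the same tumor were PLVAP, ESM1 and AQP1. PLVAP had 7.03 CPM in the intra ventricular library, against 15.7, 47.4 and 142 CPM as the lowest, median and highest of the other 9. AQP1, a water channel of peripheral endothelium and of choroid plexus epithelium, had 1.94 CPM there, against 26.3, 77.1 and 249 CPM in the others. ESM1 had 0.497 CPM, against 1.02, 5.6 and 68.6 CPM. MFSD2A, the lipid transporter of the blood-brain barrier, did not follow CLDN5 and SLCO1C1: it had 1.78 CPM in the intra ventricular library, just under the median of 2 CPM over the other 9.

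**Figure D2:**
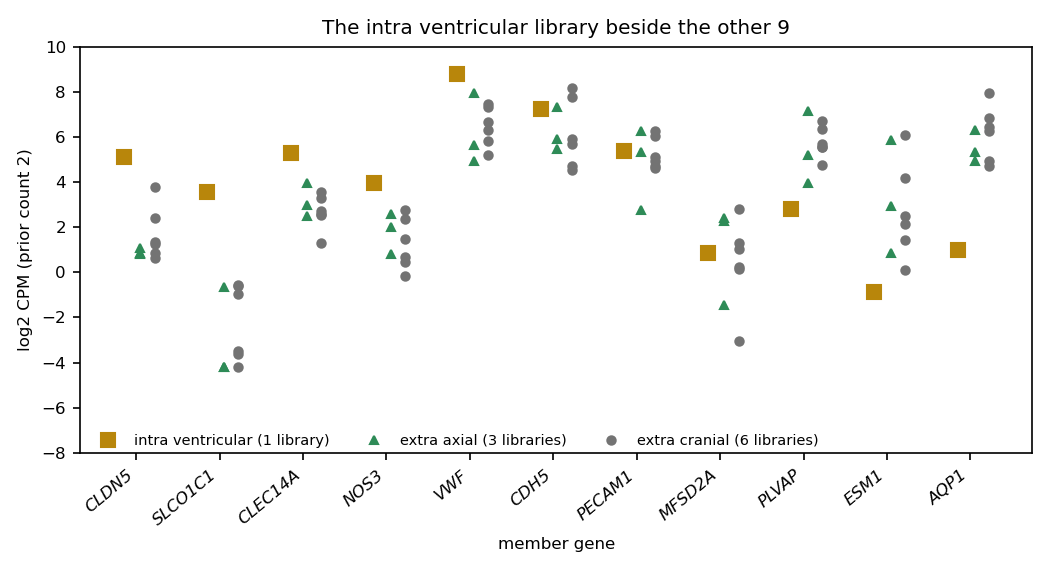
Log2 CPM (prior count 2) of 11 members in the intra ventricular library (squares), the 3 extra axial libraries (triangles) and the 6 extra cranial libraries (circles). CLDN5, SLCO1C1, CLEC14A, NOS3 and VWF are highest in the intra ventricular library, where PLVAP, ESM1 and AQP1 are lowest; MFSD2A, CDH5 and PECAM1 lie within the range of the others.

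Further members were highest in the intra ventricular library. VWF had 447 CPM there and at most 246 CPM elsewhere. CLEC14A, an endothelial lectin that binds MMRN2, had 39.1 CPM and at most 15.8 CPM elsewhere. NOS3, the endothelial nitric oxide synthase, had 15.5 CPM and at most 6.73 CPM elsewhere. The list of further brain barrier genes was divided there. Of its 15 genes, 6 were highest in the intra ventricular library and 11 stood above the median of the other 9, while RECK was lowest of all and ABCG2, FZD4 and LRP5 stood below that median. Among the high ones, the factor FOXF2 had 12.3 CPM against at most 2.35 CPM, occludin (OCLN) 58.1 CPM against at most 8.87 CPM and SPOCK2 156 CPM against at most 14.4 CPM. Among the low ones, RECK, a regulator of brain vessel WNT signaling, had 35.4 CPM against 47.1 to 226 CPM, and LRP5 28.8 CPM against a median of 88.3 CPM. These genes were chosen after their values were seen. RNA of neural tissue was high in the same library: the astrocyte gene GFAP had 1204 CPM against 0.0251 to 39.9 CPM in the others, and the neuron gene SNAP25 39.8 CPM against at most 1.87 CPM. The 4 neuron genes, each highest there, summed to 85.3 CPM and to 0.0524 to 5.67 CPM elsewhere. The 4 astrocyte genes summed to 2280 CPM there and to 74.5 to 1179 CPM elsewhere, and the 4 oligodendrocyte genes to 36.5 CPM and to 10.8 to 324 CPM. YAP1-MAML2-v2 replicate 3, second in GFAP at 39.9 CPM, was also second in CLDN5 at 13.6 CPM, but had 0.0253 CPM of SLCO1C1. The tumors second in the astrocyte and neuron sums had little CLDN5. NLS-2SA-YAP1 replicate 1, at 1179 CPM of the astrocyte genes, had 1.7 CPM of CLDN5. YAP1-MAML2-v2 replicate 4, at 5.67 CPM of the neuron genes, had 1.79 CPM of CLDN5. Of 6 choroid plexus genes 5 were also highest in the intra ventricular library, among them KCNE2 at 1.02 CPM and OTX2 at 1.52 CPM. TTR was not, with 0.568 CPM there and at most 1.25 CPM elsewhere. The part of brain tissue or of choroid plexus in these levels, SLCO1C1 included, was not tested.

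Promoters are shown for CLDN5 and SLCO1C1, the barrier genes highest in the intra ventricular tumor, and for AQP1, lowest there and the member with the smallest p between constructs. Each window runs from 250 bases before to 50 bases after the start that RefSeq gives the gene (GRCm38.p6), 5′ to 3′ on the gene's strand. The GENCODE start lies 133 bases further on for AQP1 and 14 for SLCO1C1, and is the same for CLDN5. Capitals mark matches to AGGAAG on either strand, a core that ETS factors such as ERG and FLI1 can bind.
CLDN5 (chr16:18776597-18776896, plus strand): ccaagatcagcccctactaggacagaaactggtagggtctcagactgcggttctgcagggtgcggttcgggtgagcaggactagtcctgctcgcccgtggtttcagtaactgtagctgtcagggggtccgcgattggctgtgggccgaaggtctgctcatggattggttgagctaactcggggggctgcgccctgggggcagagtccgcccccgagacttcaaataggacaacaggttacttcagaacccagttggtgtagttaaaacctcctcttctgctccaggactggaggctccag
SLCO1C1 (chr6:141524104-141524403, plus strand): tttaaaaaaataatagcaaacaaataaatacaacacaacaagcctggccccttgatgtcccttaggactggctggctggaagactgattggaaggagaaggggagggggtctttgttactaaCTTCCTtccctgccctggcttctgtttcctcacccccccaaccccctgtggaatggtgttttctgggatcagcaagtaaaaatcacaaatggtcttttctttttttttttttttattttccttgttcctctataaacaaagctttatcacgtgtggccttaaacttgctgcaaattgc
AQP1 (chr6:55336049-55336348, plus strand): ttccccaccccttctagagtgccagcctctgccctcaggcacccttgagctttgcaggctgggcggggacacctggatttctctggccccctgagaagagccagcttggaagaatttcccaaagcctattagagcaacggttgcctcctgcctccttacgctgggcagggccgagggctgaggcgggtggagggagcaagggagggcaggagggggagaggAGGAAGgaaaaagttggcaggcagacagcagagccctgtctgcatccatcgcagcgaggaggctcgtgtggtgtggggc
SLCO1C1 and AQP1 held 1 match each and CLDN5 held 0. Of 34 members 17 had a window in the table, 9 of those genes held the motif, and 10 of their 23 windows (43.5%) did, against 35.4% of all 32851 windows. A match is a description of letters, not a binding site.

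Between the constructs no endothelial gene passed the test. The comparison was NLS-2SA-YAP1 against YAP1-MAML2-v2 tumors, with region as a term, in edgeR's quasi-likelihood test over all genes, and all 34 members passed the filter on low values. Group values of YAP1-MAML2-v2 tumors given below include the intra ventricular library, which adds nothing to the fitted construct difference. The 2 can therefore differ in direction. Of 34 members 0 had an adjusted p under 0.05, where 0.0146% of all genes were called. DESeq2 called 0 of the 31 members to which it gave an adjusted p (FLT4, PROX1 and ECSCR had none) and 5.30% of all genes. Limma-voom with sample quality weights called 0 of 34 members and 0.693% of all genes. At an unadjusted edgeR p under 0.05 there was 1 member, AQP1, against 13.1% of all genes; DESeq2 also had 1 and limma-voom 8 (17.6% and 19.7% of all genes). For 0 members did every NLS-2SA-YAP1 library stand above or below every YAP1-MAML2-v2 library, while 3.71% of all genes were wholly higher and 3.03% wholly lower. The fitted difference was above 0 in 23 members and below 0 in 11, with a median log2 fold change of 0.49, against -0.03 over all genes. Without the 3 genes listed at 0 or 1 the median was 0.41, from 20 above and 11 below. That median did not keep its sign: it was -0.05 when NLS-2SA-YAP1 replicate 2 was left out, -0.07 with no term for region and -0.21 with the skeletal muscle list as a covariate. It was 1.02 when YAP1-MAML2-v2 replicate 3 was left out. Adjusted p-values of the members lay between 0.228 and 0.999 in edgeR.

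AQP1 had the smallest p of the members. It lies on chromosome 6 at 55336432 to 55348555 (mm10) and had 78.9, 114 and 249 CPM in the 3 NLS-2SA-YAP1 tumors. In YAP1-MAML2-v2 tumors the lowest, median and highest libraries had 1.94, 30.5 and 86.7 CPM. The groups overlap, since NLS-2SA-YAP1 replicate 1 lies under YAP1-MAML2-v2 replicate 3. EdgeR put its log2 ratio at 1.54, with an SE of 0.45 and an adjusted p of 0.228, beside a DESeq2 adjusted p of 0.0502 and a limma-voom adjusted p of 0.114. Over the alternatives the log2 fold change ran from 0.89 to 1.81 and the adjusted p from 0.0502 to 0.628. It was 1.70 in extra cranial libraries alone (edgeR adjusted p = 0.443) and 0.89 with the muscle covariate (edgeR adjusted p = 0.628). AQP1 is also a gene of choroid plexus, and other genes of that tissue are given beside it. The chloride channel gene CLIC6 had 53.5, 94.2 and 188 CPM in the NLS-2SA-YAP1 tumors. It had 48.4 and 189 CPM in YAP1-MAML2-v2 replicates 1 and 7 and at most 0.0281 CPM in the other YAP1-MAML2-v2 tumors. TTR, the defining choroid plexus transcript, was at most 1.25 CPM in every library, and KCNE2 and OTX2 were listed at 0 in all but the intra ventricular one. The 6 choroid plexus genes, CLIC6 included, summed to 53.5, 113 and 188 CPM in NLS-2SA-YAP1 tumors. In YAP1-MAML2-v2 tumors they summed to 0 to 229 CPM, highest in replicate 7, where AQP1 was lowest. These sums are mostly CLIC6 in the NLS-2SA-YAP1 tumors and in YAP1-MAML2-v2 replicates 1 (sum of 49.7 CPM) and 7, so they add little to that 1 gene. The part of choroid plexus RNA in the AQP1 values was not tested.

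**Figure D3:**
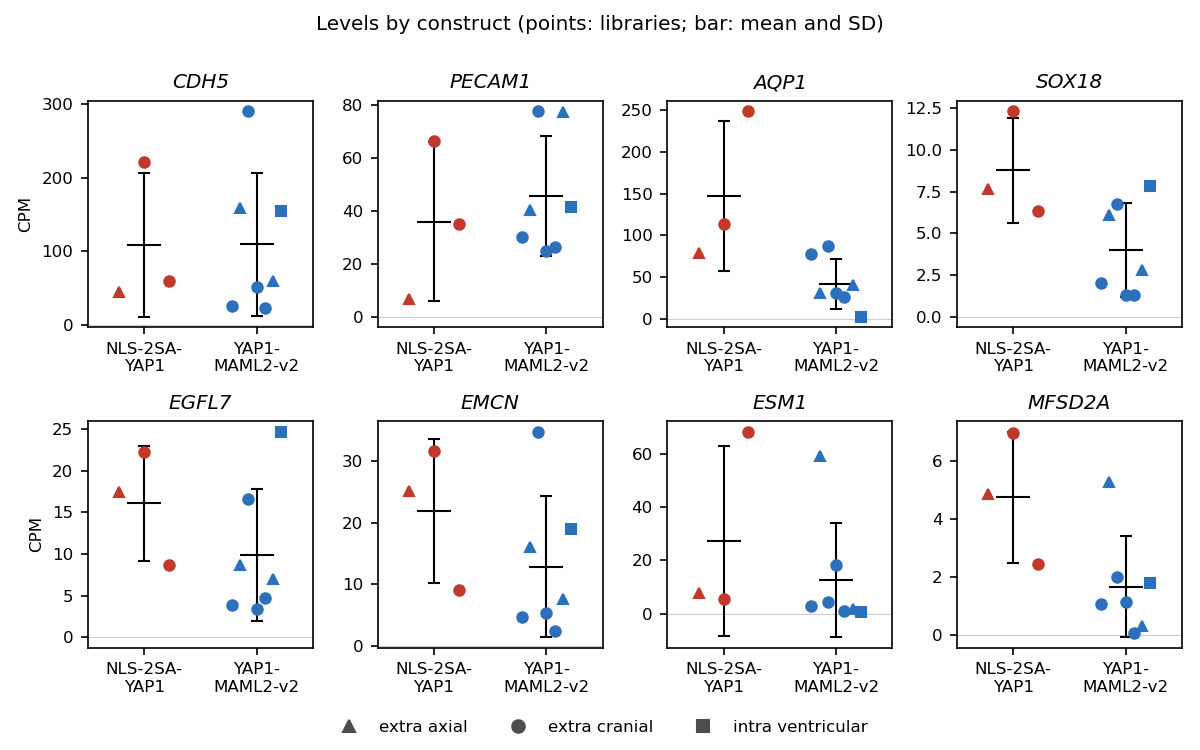
CPM of 8 members in NLS-2SA-YAP1 (red, n = 3) and YAP1-MAML2-v2 tumors (blue, n = 7); each point is a library, its shape gives the source region, and bars are mean and SD. The groups overlap in all 8 genes, and CDH5 averages 108 CPM in NLS-2SA-YAP1 and 109 CPM in YAP1-MAML2-v2 tumors.

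Of the 5 junction genes, 2 were fitted above 0 and 3 below, with edgeR adjusted p-values of 0.745 or more. CDH5 averaged 108 ± 97.9 CPM in NLS-2SA-YAP1 tumors (SD, n = 3) and 109 ± 97.6 CPM in YAP1-MAML2-v2 tumors (SD, n = 7). PECAM1, the platelet endothelial adhesion molecule, averaged 36 ± 29.9 CPM in NLS-2SA-YAP1 tumors (SD, n = 3) and 45.5 ± 22.7 CPM in YAP1-MAML2-v2 tumors (SD, n = 7). CLDN5 had 1.7, 5.23 and 1.48 CPM in NLS-2SA-YAP1 tumors, against 1.73, 2.34 and 34.8 CPM as the lowest, median and highest of YAP1-MAML2-v2 tumors. ESAM and ICAM2, which mediate contacts among endothelial cells and with leukocytes, overlapped too: ESAM averaged 13.6 CPM in NLS-2SA-YAP1 tumors and 15.9 CPM in YAP1-MAML2-v2 tumors, and ICAM2 3.9 CPM in NLS-2SA-YAP1 tumors and 7 CPM in YAP1-MAML2-v2 tumors. The YAP1-MAML2-v2 average of ESAM includes 43.3 CPM in the intra ventricular library. The fit, to which that library adds nothing, put ESAM above 0 (edgeR log2 ratio of 0.48, SE of 0.51).

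Among 10 surface and secreted proteins, 7 were fitted above 0 and 3 below; the 7 include ECSCR, from which no fold is read. EGFL7, a matrix protein that endothelial cells secrete, had 17.4, 22.2 and 8.64 CPM in NLS-2SA-YAP1 tumors, against 3.43, 6.94 and 24.7 CPM as the lowest, median and highest of YAP1-MAML2-v2 tumors. EdgeR put its log2 ratio at 1.12, with an SE of 0.59 and an adjusted p of 0.456, and the alternatives put it between 0.61 and 1.67. EMCN, the sialomucin endomucin, had 25.1, 31.6 and 9.02 CPM in NLS-2SA-YAP1 tumors, against 2.51, 7.7 and 34.8 CPM, with a fitted log2 ratio of 0.88 (SE of 0.80, adjusted p of 0.691 in edgeR). That of EMCN was 0.16 with the muscle covariate, 0.37 when NLS-2SA-YAP1 replicate 2 was left out and 1.89 when YAP1-MAML2-v2 replicate 3 was. In 3 of the most abundant members the groups overlapped as well. VWF had 49.5, 79.2 and 102 CPM in NLS-2SA-YAP1 tumors, and 30.7, 164 and 447 CPM as the lowest, median and highest of YAP1-MAML2-v2 tumors. CD93, a lectin-like receptor, had 26.9, 66.6 and 36.9 CPM in NLS-2SA-YAP1 tumors, and 29, 63.5 and 196 CPM in YAP1-MAML2-v2 tumors. ENG had 380, 189 and 138 CPM in NLS-2SA-YAP1 tumors, and 54.3, 167 and 293 CPM in YAP1-MAML2-v2 tumors. PLVAP averaged 55.6 ± 45 CPM in NLS-2SA-YAP1 tumors (SD, n = 3) and 56.2 ± 44.2 CPM in YAP1-MAML2-v2 tumors (SD, n = 7). ROBO4, a guidance receptor that steadies vessels, averaged 19.5 CPM in NLS-2SA-YAP1 tumors and 17.1 CPM in YAP1-MAML2-v2 tumors, and MMRN2, a matrix glycoprotein, 15.8 CPM in NLS-2SA-YAP1 tumors and 17.2 CPM in YAP1-MAML2-v2 tumors. ECSCR, an endothelial surface protein that acts in cell migration, stayed between 0.0262 and 1.2 CPM in all 10 libraries.

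The transcription factors were divided, with 3 fitted above 0 and 3 below. SOX18, a SOX factor of blood and lymph vessels, had 7.68, 12.3 and 6.31 CPM in NLS-2SA-YAP1 tumors, against 1.29, 2.78 and 7.81 CPM as the lowest, median and highest of YAP1-MAML2-v2 tumors. EdgeR put its log2 ratio at 1.43, with an SE of 0.72 and an adjusted p of 0.437, and the alternatives put it between 0.63 and 2.03. The related SOX17, which is tied to arteries, averaged 2.23 ± 1.11 CPM in NLS-2SA-YAP1 tumors (SD, n = 3) and 2.54 ± 2.08 CPM in YAP1-MAML2-v2 tumors (SD, n = 7). ERG averaged 11.4 ± 7.27 CPM in NLS-2SA-YAP1 tumors (SD, n = 3) and 13 ± 14.1 CPM in YAP1-MAML2-v2 tumors (SD, n = 7). The YAP1-MAML2-v2 averages of SOX17 and ERG include 6.44 and 28.7 CPM in the intra ventricular library. The fit put SOX17 at a log2 ratio of 0.37 (SE of 0.92) and ERG at -0.01 (SE of 0.96) in edgeR. FLI1, the other ETS factor, averaged 24 ± 10.3 CPM in NLS-2SA-YAP1 tumors (SD, n = 3) and 33.8 ± 18.5 CPM in YAP1-MAML2-v2 tumors (SD, n = 7). LMO2, which bridges TAL1 to DNA-bound partners, had 14.6, 20.7 and 16.8 CPM in NLS-2SA-YAP1 tumors, against 12, 31.7 and 83.5 CPM. TAL1 itself averaged 8.1 ± 7.53 CPM in NLS-2SA-YAP1 tumors (SD, n = 3) and 7.66 ± 7.43 CPM in YAP1-MAML2-v2 tumors (SD, n = 7).

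ESM1 and APLN, the genes of sprouting vessels, had single high tumors within each construct. ESM1 had 7.56, 5.6 and 68.6 CPM in NLS-2SA-YAP1 tumors, against 0.497, 2.65 and 59.3 CPM as the lowest, median and highest of YAP1-MAML2-v2 tumors. Its log2 fold change of 1.60 (SE 1.48; edgeR adjusted p = 0.7) turned to -0.92 when NLS-2SA-YAP1 replicate 3 was left out. APLN had 0.12, 11.8 and 3.27 CPM in NLS-2SA-YAP1 tumors, against 0.59, 2.68 and 18.8 CPM. YAP1-MAML2-v2 replicate 2 was thus the top library for APLN and second for ESM1. In that library APLNR, the apelin receptor gene, stood at 0.0524 CPM, the lowest of all, while YAP1-MAML2-v2 replicate 6 had 48.6 CPM. In NLS-2SA-YAP1 tumors APLNR had 12.6, 11.9 and 7.11 CPM.

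Signaling and barrier genes gave no call either. Of 5 signaling genes, 4 were fitted above 0, among them BMX, from which no fold is read. ARHGEF15 had 6.29, 8.13 and 5.05 CPM in NLS-2SA-YAP1 tumors, against 0.863, 3.93 and 10 CPM as the lowest, median and highest of YAP1-MAML2-v2 tumors (in edgeR a log2 ratio of 0.88 with an SE of 0.78 and an adjusted p of 0.683, and -0.07 with the muscle covariate). RASIP1, which acts on vessel lumen formation, averaged 6.72 CPM in NLS-2SA-YAP1 tumors and 5.74 CPM in YAP1-MAML2-v2 tumors. NOS3 had 3.97, 6.73 and 2.71 CPM in NLS-2SA-YAP1 tumors, against 0.851, 1.71 and 15.5 CPM, and BMX, a TEC family kinase, stayed between 0 and 1.89 CPM in all 10 libraries. S1PR1, the sphingosine-1-phosphate receptor, averaged 8.69 ± 3.94 CPM in NLS-2SA-YAP1 tumors (SD, n = 3) and 17 ± 16.1 CPM in YAP1-MAML2-v2 tumors (SD, n = 7). SLCO1C1 had 0.574, 0.0342 and 0.452 CPM in NLS-2SA-YAP1 tumors, against 0, 0.0253 and 11.9 CPM. MFSD2A had 4.86, 6.97 and 2.44 CPM in NLS-2SA-YAP1 tumors, against 0.066, 1.13 and 5.29 CPM, with a fitted log2 ratio of 1.74 (SE of 1.10, adjusted p of 0.536 in edgeR) that the alternatives put between 0.93 and 2.63. The lymphatic pair was high in the same tumor: YAP1-MAML2-v2 replicate 3 had 6.63 CPM of PROX1 and 50.8 CPM of FLT4. FLT4 averaged 12.2 ± 11.1 CPM in NLS-2SA-YAP1 tumors (SD, n = 3) and 13.1 ± 17 CPM in YAP1-MAML2-v2 tumors (SD, n = 7). PROX1 had 2.23, 2.19 and 0.176 CPM in NLS-2SA-YAP1 tumors, against 0.0524, 0.595 and 6.63 CPM.

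**Figure D4:**
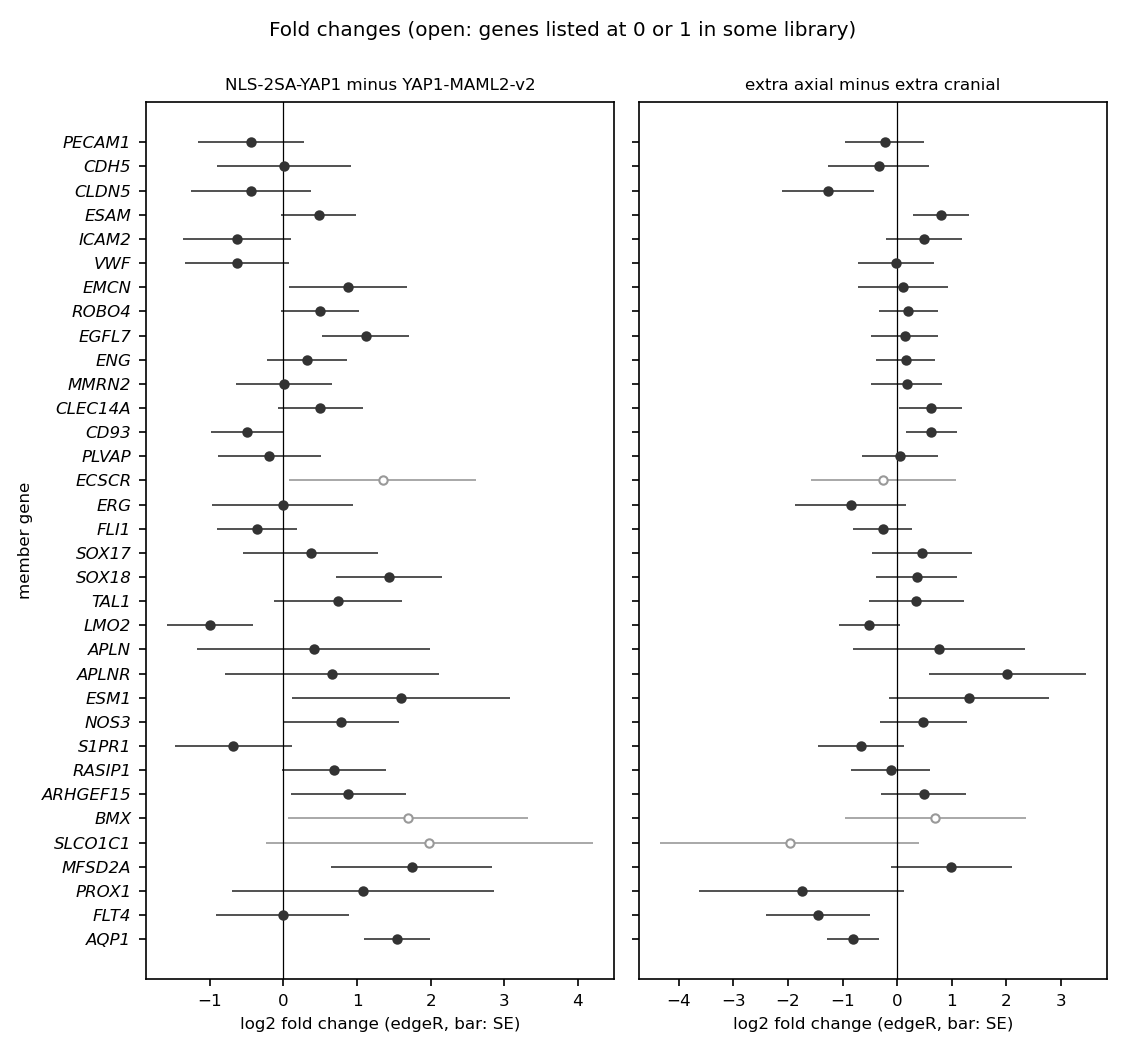
Log2 fold change and SE of each member from edgeR, NLS-2SA-YAP1 minus YAP1-MAML2-v2 (left) and extra axial minus extra cranial (right); open points are the 3 genes listed at 0 or 1 in some library, from which no fold is read. No member passed the test in either comparison, and 23 of 34 lie above 0 on the left and 20 of 34 on the right, open points included.

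Between source regions no endothelial gene passed the test either. The comparison set extra axial tumors (n = 3) against extra cranial tumors (n = 6), with construct as a term. In edgeR 0 of 34 members and 0% of all genes were called, with 0 members and 3.01% of all genes at an unadjusted p under 0.05. DESeq2 called 0 of the 32 members to which it gave an adjusted p and 0.230% of all genes. Limma-voom called 0 of 34 members and 0% of all genes. At an unadjusted p under 0.05 both had 0 members, against 4.97% of all genes in DESeq2 and 2.35% in limma-voom. In 0 members were the regions free of overlap, while 0.387% of all genes were wholly higher in extra axial tumors and 0.503% wholly lower. The fit put 20 members above 0 and 14 below, with a median log2 fold change of 0.15, against -0.01 over all genes. Without the 3 genes listed at 0 or 1 the median was 0.16, from 19 above and 12 below. The median of all members turned to -0.16 when YAP1-MAML2-v2 replicate 2 was left out and to -0.15 when replicate 6 was. It was 0.61 without replicate 3 of the same construct and 0.91 with the muscle covariate.

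Regional values of several members followed single tumors. FLT4 had 6.58, 7.39 and 3.65 CPM in extra axial tumors, against 4.2, 5.96 and 50.8 CPM as the lowest, median and highest of extra cranial ones. EdgeR put its log2 ratio at -1.45, with an SE of 0.96 and an adjusted p of 1, and -0.32 when YAP1-MAML2-v2 replicate 3 was left out. CLDN5 had 1.7, 1.73 and 2.05 CPM in extra axial tumors, against 1.48, 2.42 and 13.6 CPM in extra cranial ones (in edgeR a log2 ratio of -1.27 with an SE of 0.84 and an adjusted p of 1). The CLDN5 ratio was -0.48 when YAP1-MAML2-v2 replicate 3 was left out and -0.27 with the muscle covariate. APLNR had 12.6, 0.0524 and 48.6 CPM in extra axial tumors, against 0.454, 5.04 and 11.9 CPM in extra cranial ones, so that the extra axial tumors held both the lowest and the highest values of all 10. Its log2 fold change of 2.02 (SE 1.44; edgeR adjusted p = 1) turned to -1.42 when YAP1-MAML2-v2 replicate 6 was left out. CD93 had 26.9, 135 and 91.4 CPM in extra axial tumors, against 29, 51.4 and 66.6 CPM in extra cranial ones. Among YAP1-MAML2-v2 tumors both extra axial libraries stood above all 4 extra cranial ones in CD93, while in NLS-2SA-YAP1 tumors the extra axial library stood below both. ESAM had 10.7, 27.2 and 10.6 CPM in extra axial tumors, against 6.3, 8.3 and 19.9 CPM in extra cranial ones.

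Whether the construct difference varied with region was fitted to the 9 extra axial and extra cranial libraries. The only extra axial NLS-2SA-YAP1 tumor is replicate 1, so a difference of that kind and a trait of that tumor cannot be told apart. In edgeR 0 of 34 members and 0.00741% of all genes passed, and 4 members (PECAM1, CD93, PLVAP and APLN) had an unadjusted p under 0.05, against 7.14% of all genes. The fitted interaction was above 0 in 8 members and below 0 in 26, with a median of -1.25 log2 units, against -0.04 over all genes. The members' median was -1.22 in DESeq2 and -1.34 in limma-voom. Without the 3 genes listed at 0 or 1 it was -1.29 in edgeR, from 7 above and 24 below. PECAM1 had 6.75 CPM in the extra axial NLS-2SA-YAP1 tumor and 66.4 and 34.9 CPM in the extra cranial ones. In YAP1-MAML2-v2 tumors PECAM1 had 40.5 and 77.4 CPM when extra axial, and 30.3, 77.6, 25 and 26.5 CPM when extra cranial. PLVAP had 15.7 CPM in the extra axial NLS-2SA-YAP1 tumor and 104 and 46.7 CPM in the extra cranial ones, against 36.8 and 142 CPM and then 26.8, 47.4, 81.6 and 51.7 CPM in the same regions of YAP1-MAML2-v2 tumors. DESeq2 called 1 of the 30 members to which it gave an adjusted p, APLN (adjusted p = 0.0452), and 1.59% of all genes. At an unadjusted p under 0.05 DESeq2 had 5 members and limma-voom 3, against 10.5% and 7.97% of all genes. For APLN the edgeR adjusted p was 0.671 and that of limma-voom 0.661. Limma-voom called 0 members and 0% of all genes.

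Further vessel genes, from lists chosen for this tissue, gave no call in edgeR in either comparison, but DESeq2 and limma-voom called some of them between constructs. Of all genes, DESeq2 called 5.30% and limma-voom 0.693% between constructs, and edgeR fitted 48.4% above 0. Among 12 genes of the VEGF and TIE systems other than FLT4, 4 were fitted above 0 between constructs and 8 below. ANGPT2, the TIE2 ligand that loosens vessels, had 2.7, 10.7 and 4.12 CPM in NLS-2SA-YAP1 tumors, against 23.4, 57.1 and 91 CPM as the lowest, median and highest of YAP1-MAML2-v2 tumors (in edgeR a log2 ratio of -3.32 with an SE of 0.41 and an adjusted p of 0.0591). ANGPT2 passed in both other tools (adjusted p of 1.22e-13 in DESeq2 and 0.0187 in limma-voom), and between regions, as lower in extra axial tumors, in DESeq2 only (0.0309). DESeq2 also called FLT1 (0.01) and VEGFC (0.0373), both lower in NLS-2SA-YAP1 tumors. KDR, the main VEGF receptor, averaged 36.2 ± 18.2 CPM in NLS-2SA-YAP1 tumors (SD, n = 3) and 55.5 ± 61.3 CPM in YAP1-MAML2-v2 tumors (SD, n = 7). TEK, the TIE2 receptor, averaged 40 ± 23 CPM in NLS-2SA-YAP1 tumors (SD, n = 3) and 37.7 ± 35.6 CPM in YAP1-MAML2-v2 tumors (SD, n = 7). Both YAP1-MAML2-v2 averages include the intra ventricular library, with 169 CPM of KDR and 108 CPM of TEK. Of 21 other endothelial genes tested 7 were fitted above 0 and 14 below in edgeR. DESeq2 called 1 of these, the leukocyte adhesion gene SELE, as higher in NLS-2SA-YAP1 tumors (adjusted p of 0.00326), and limma-voom called 0. SELE had 0.168, 9.29 and 1.86 CPM in NLS-2SA-YAP1 tumors. The lowest, median and highest YAP1-MAML2-v2 tumors had 0.0284, 0.0989 and 5.02 CPM, so the groups overlap and several values lie near 0. Of 14 tested genes of brain barrier endothelium 3 were fitted above 0 and 11 below, among them LRP5, a WNT coreceptor that many cells use, with 14.8, 32.5 and 29.1 CPM in NLS-2SA-YAP1 tumors and 28.8, 91.9 and 172 CPM as the lowest, median and highest of YAP1-MAML2-v2 tumors (edgeR adjusted p = 0.107). The 28.8 CPM of LRP5 is the intra ventricular library, and the other YAP1-MAML2-v2 tumors had 71.2 to 172 CPM. LRP5 was called lower in NLS-2SA-YAP1 tumors by DESeq2 (adjusted p of 2.34e-06) and by limma-voom (0.0331), and DESeq2 also called ABCG2 (0.00474), SLC7A5 (0.0123) and SPOCK2 (0.0424) lower. Of 6 tested lymphatic genes 1 was fitted above 0: PDPN, a mucin-like protein of lymphatic endothelium and other cells, with 139, 84.3 and 57.1 CPM in NLS-2SA-YAP1 tumors, against 17, 30.6 and 94.9 CPM (edgeR adjusted p = 0.25). The 94.9 CPM of PDPN is the intra ventricular library, which adds nothing to the fit. The other YAP1-MAML2-v2 tumors had at most 56.9 CPM, under every NLS-2SA-YAP1 tumor. No tool called a gene of this lymphatic list. The 12 genes of pericytes and smooth muscle summed to 1566 to 2227 CPM in NLS-2SA-YAP1 tumors and to 1100 to 3032 CPM in YAP1-MAML2-v2 tumors. In edgeR 0 of these passed, while DESeq2 called ACTA2 (adjusted p of 0.000752), TAGLN (0.00142) and DES (0.0272), and limma-voom ACTA2 and TAGLN (0.0331 each), as higher in NLS-2SA-YAP1 tumors. DES is also a gene of skeletal muscle. All 12 genes of a hypoxia list were fitted below 0 between constructs in edgeR. Their median log2 fold change was -1.57, against -0.03 over all genes. DESeq2 called 5 of these (ADM, PDK1, CA9, KDM3A and BNIP3) lower in NLS-2SA-YAP1 tumors, and edgeR and limma-voom called 0. The part of hypoxia in the levels of vessel genes was not tested.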

How the data were processed

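RNA was extracted from frozen, ground tumors and made into stranded mRNA libraries, per the labels' protocols. The authors' deposited values are treated as estimated counts: per the submitters' processing notes HTSeq and mm10 were used, with no versions, but genes listed at 1 outnumber those at 2 by 4.54 to 6.82 times in each library, which plain counts would not show. The mouse genes carry human-style symbols, and 15475 of 16895 (91.6%) match GENCODE M21, the source of coordinates and exon lengths. The sources used here name no aligner, annotation or strand setting. Totals were 28001143 to 44544314 per library; they are not plain sequencing depth, so no counting interval is given. The values are whole as deposited.

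Genes were kept with filterByExpr (minimum count 10, by construct), which left 13707, with TMM scaling. Tests were run in edgeR 4.0.16 under R 4.3.3 (robust quasi-likelihood) with construct and region as terms, and Benjamini-Hochberg adjustment over all genes tested (threshold 0.05). The SE is the log2 fold change over the root of its F statistic. A term of its own takes up the intra ventricular library, which so adds nothing to the construct difference. Alternatives were DESeq2 1.42.0, limma-voom (limma 3.58.1), other scaling, filters and terms, and leaving out each library. The steps were tested on simulated counts, with 50 genes changed between constructs at each fold. The edgeR construct test recovered 0% of genes changed 2-fold, 28% at 4-fold, 62% at 8-fold and 84% at 16-fold, with 0 false calls. A lack of calls between constructs therefore does not show equal levels. Log2 CPM used a prior count of 2. Nothing says that replicates are separate mice, so p-values measure the spread between these samples.

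The members and gene lists were chosen with earlier results of these data known. Genes whose values are given in full are members past the threshold in any tool, members whose groups do not overlap, the 5 of highest mean CPM, CDH5, CLDN5, PLVAP, APLN, ESM1, MFSD2A, SLCO1C1, PROX1 and AQP1 and, from each other list, up to 3 genes of smallest p, with ANGPT2, KDR and TEK. The remaining members are described by role, and values of some, such as EGFL7, EMCN, SOX18 and FLT4, are given outside this rule. So are values of some list genes, such as FOXF2, OCLN, RECK and TTR. Genes with no DESeq2 adjusted p are left out of its shares. Neural tissue genes were added after the data were seen. Of 117 genes in the other lists, 113 are in the files and the rest are not analysed here.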

Additional observations from a re-analysis of the deposited data

Results flagged for a closer look

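In the 7 YAP1-MAML2-v2 tumors, 8 of the 34 genes had 1 library set far from the rest, by the gap to its neighbour over the whole range (Dixon's test); chance gives about 1 in 20 groups. The members' share, 23.5%, is close to the 21.4% of all 13707 genes tested that the same measure picks out, so it is not a result about the members. In YAP1-MAML2-v2 replicate 7, the intra ventricular tumor, CLDN5 stood at 34.8 CPM (next 13.6), CLEC14A at 39.1 CPM (next 15.8), NOS3 at 15.5 CPM (next 5.98) and SLCO1C1 at 11.9 CPM (next 0.625). In YAP1-MAML2-v2 replicate 2, extra axial, APLN stood at 18.8 CPM (next 6.18), ESM1 at 59.3 CPM (next 18.4) and MFSD2A at 5.29 CPM (next 2). In YAP1-MAML2-v2 replicate 3, extra cranial, FLT4 stood at 50.8 CPM (next 14.5). The construct difference of APLN differed between regions in DESeq2 (adjusted p = 0.0452), but not in edgeR (0.671) or limma-voom (0.661), and it rests on NLS-2SA-YAP1 replicate 1, the only extra axial tumor of that construct.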

How the results depend on the processing

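Between constructs 0 members were called under all 20 alternatives, and between regions under all 19. Both totals hold the same fit under 2 names, without the intra ventricular library and without YAP1-MAML2-v2 replicate 7. The region fit to YAP1-MAML2-v2 libraries only tested 28 members. All genes called between constructs numbered 2 in edgeR, 685 in DESeq2, 95 in limma-voom, 4 without the filter on low values, 1 after dropping genes that jump from 0 or 1 to over 100 between libraries, 4 in extra cranial libraries only and 0 with the skeletal muscle covariate (1388 at an unadjusted p under 0.05). Without 1 library in turn they numbered 0 to 2. Between regions 0 genes were called in edgeR, 31 in DESeq2, and 0 to 1 without 1 library in turn. For the interaction DESeq2 called 1 member. The members' median log2 fold change between constructs was 0.49; it turned to -0.21 with the muscle covariate and -0.07 without the region term, and ran from -0.05 to 1.02 without 1 library. Between regions it was 0.15 and ran from -0.16 to 0.61 without 1 library. With the muscle covariate ARHGEF15 (-0.07) and ESM1 (-1.70) turned between constructs and FLT4 (0.04) between regions. Without 1 library ESM1 ran from -0.92 to 2.67 between constructs and APLNR from -1.42 to 3.11 between regions. The cause was not tested. With the replicate block, on replicates 1 to 3 of both constructs, edgeR called 2 genes and 0 members (median 0.36). Whether the numbers pair the samples is not known. Same-numbered deviations correlated at 0.167, 0.337 and -0.072, and 1 of the 3 NLS-2SA-YAP1 tumors correlated best with its own number. These values cannot decide it, since the libraries numbered 1, and those numbered 2, come from different regions. Few libraries, and values that are not plain counts, limit what the genes near 0 can show.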
